A study of Mus musculus with 8 samples.

Results

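The crystallins are the proteins that fill the fibre cells of the lens, and several of them are also made in the retina. The genes described are 10 crystallins chosen by symbol: Cryaa, Cryab, Cryba1, Cryba2, Cryba4, Crybb1, Crybb2, Crybb3, Crygs and Crygn. All 10 were found among the 19938 genes of the table, each through 1 probe set. The mice were male C57BL/6, aged 6 weeks when the study began, and were injected with saline or with MPTP, which poisons dopamine neurons. Retinas were taken at 1 week or at 4 weeks, which gives 4 groups: saline at 1 week, MPTP at 1 week, saline at 4 weeks and MPTP at 4 weeks. Each group had 6 mice and 2 arrays, and each of the 8 arrays received RNA pooled from 4 retinas. The dose is not given in the sources used here, nor is it said whether the 2 pools in each group had any mouse in common, so the p-values below measure only the spread between arrays.

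The family has 3 branches. Alpha crystallins (Cryaa, Cryab) are small heat shock proteins that keep other proteins from aggregating, and Cryab is made in many tissues under stress. Beta crystallins (Cryba and Crybb genes) and gamma crystallins (Cryg genes) share one structural fold and make up much of the dense, clear interior of lens fibre cells. In the retina, crystallin transcripts have been described in neurons and glia, and retinas dissected from an eye can also carry fragments of lens.

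The promoters of 9 members were found among the mouse promoter sequences of RefSeq (build GRCm38.p6), and Cryab was not matched. Large Maf proteins drive crystallin genes in the lens, and the half-site TGCTGA, searched on both strands in the 250 bases before the start, lay in 8 of the 9 promoters against 16.1% of the 32841 mouse promoters. Crybb2 was the member without it. TATAAA, read on the gene strand, lay in 3 of 9 (Crybb1, Cryba1 and Crygs) against 7.59% of all. AACAAT, the core of sites bound by Sox factors, lay on either strand in 2 of 9 (Crybb1 and Crygs) against 9.43%, and the heat shock element core GAANNTTC in 0 of 9 against 6.7%. These matches describe the letters only. The promoters of the 3 members that varied most between arrays, and that of Crygn, which varied least, are printed on the gene strand from 250 bases before the start to the base before it. Capitals mark the 3 motifs found, read on either strand for the Maf half-site (reverse complement TCAGCA) and for the Sox core (reverse complement ATTGTT), and no match overlapped another. The regions are chr11:77725294-77725543 (minus strand) for Cryba1, chr16:22811411-22811660 (minus strand) for Crygs, chr17:31677681-31677930 (plus strand) for Cryaa and chr5:24757849-24758098 (minus strand) for Crygn.
Cryba1: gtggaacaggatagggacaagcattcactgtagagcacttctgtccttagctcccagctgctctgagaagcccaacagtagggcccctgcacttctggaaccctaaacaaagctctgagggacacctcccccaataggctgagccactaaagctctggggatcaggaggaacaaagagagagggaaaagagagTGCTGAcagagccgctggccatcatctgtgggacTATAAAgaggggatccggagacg
Crygs: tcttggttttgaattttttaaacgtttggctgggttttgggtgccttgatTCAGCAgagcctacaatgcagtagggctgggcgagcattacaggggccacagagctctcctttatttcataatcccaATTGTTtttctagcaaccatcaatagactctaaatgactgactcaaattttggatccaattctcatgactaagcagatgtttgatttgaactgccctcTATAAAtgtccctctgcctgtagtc
Cryaa: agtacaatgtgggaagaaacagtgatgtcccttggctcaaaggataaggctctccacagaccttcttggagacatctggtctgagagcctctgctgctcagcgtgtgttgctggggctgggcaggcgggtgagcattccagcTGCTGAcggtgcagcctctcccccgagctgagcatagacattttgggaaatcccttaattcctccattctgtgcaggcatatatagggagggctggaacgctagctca
Crygn: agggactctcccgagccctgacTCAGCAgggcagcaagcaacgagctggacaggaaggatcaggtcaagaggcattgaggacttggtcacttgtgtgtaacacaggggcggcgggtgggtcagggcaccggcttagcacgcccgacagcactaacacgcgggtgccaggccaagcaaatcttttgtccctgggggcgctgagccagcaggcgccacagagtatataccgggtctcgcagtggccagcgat
The Maf half-site began 57 bases before the start in Cryba1, 108 in Cryaa, 200 in Crygs and 228 in Crygn.

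Values are log2 signals normalised by RMA, a method that brings all arrays to one scale and summarises the probes of a probe set. The tissue label was borne out by rod genes, whose mean level lay between 11.32 and 11.43 on every array. Saline 1 week array 2 and MPTP 1 week array 1 stood apart in the spread of all probe sets, with interquartile ranges of 2.08 each against 1.84 to 1.95 on the other 6 arrays, so the members' median fold changes are also given without both. In a bulk tissue, fewer cells of a type and less RNA per cell cannot be told apart. Levels are compared here between arrays, for 1 gene or for the mean of 1 list at a time, since signals of different probe sets have no common scale. Ranks of a probe set's signal among all genes are only a rough guide to how bright it is.

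Most crystallins followed one pattern over the arrays, and the pattern did not follow the treatment. MPTP 1 week array 2 carried the highest signal of the 8 arrays for 9 of 10 members, against 12.3% of all genes. The other array of the same group, MPTP 1 week array 1, carried the lowest signal for 9 of 10, against 21.7% of all genes. The exceptions were Crybb2, which was highest on saline 4 weeks array 2 by 0.015 over MPTP 1 week array 2, and Crybb3, which was lowest on saline 1 week array 2. Saline 4 weeks array 2 was the second highest array for 7 members, MPTP 4 weeks array 1 for 2 (Crybb1 and Crygn) and MPTP 1 week array 2 for 1 (Crybb2).

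**Figure D1:**
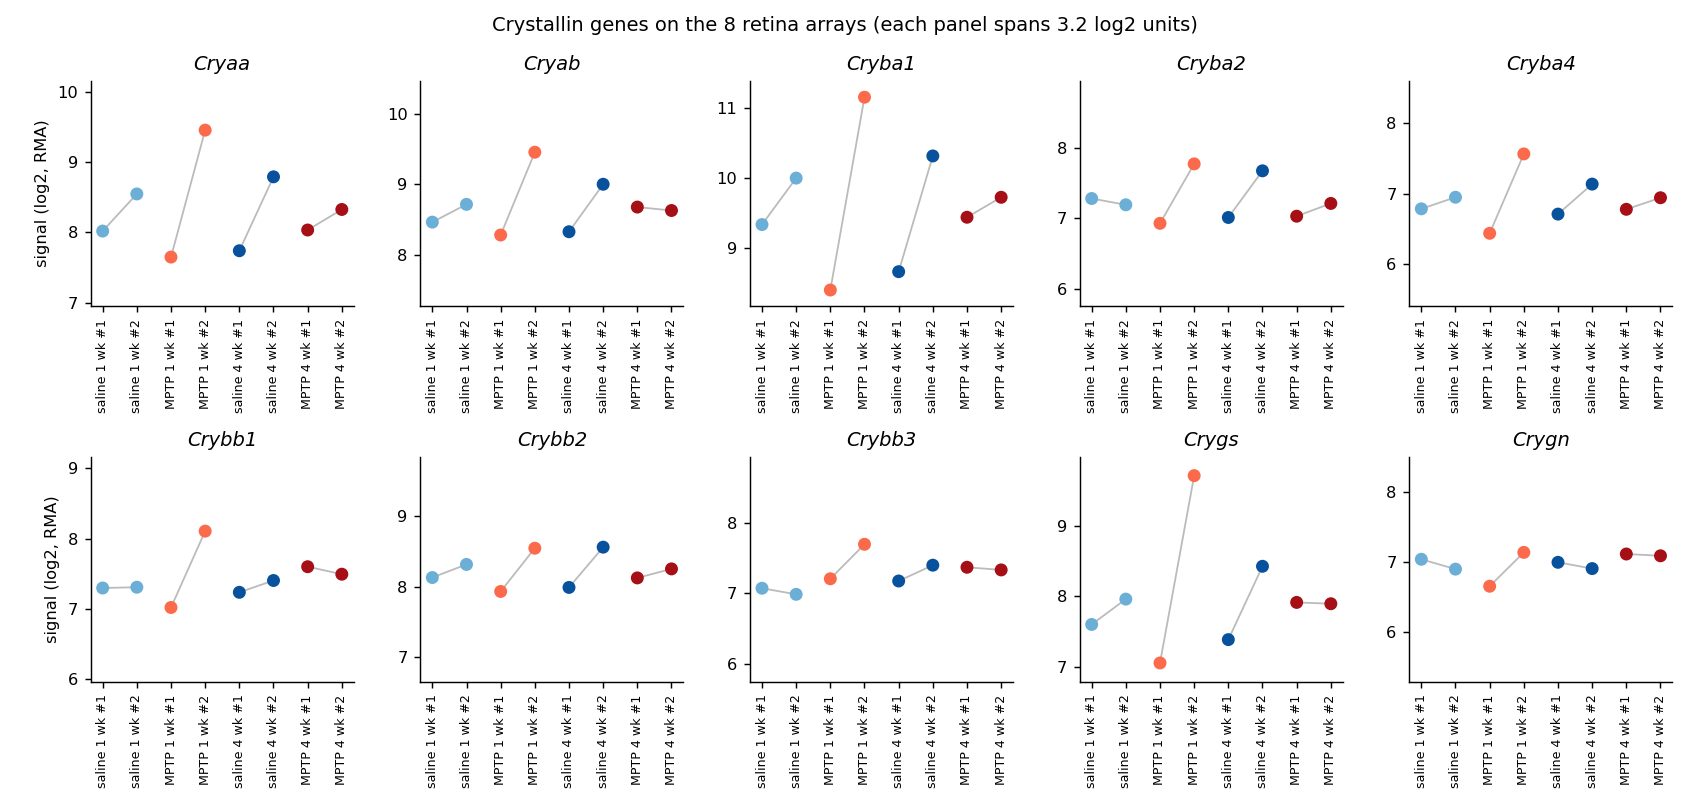
Signal (log2, RMA) of each crystallin gene on the 8 arrays, with the 2 arrays of a group joined by a line and every panel spanning the same number of log2 units. MPTP 1 week array 2 is the top point in 9 of 10 panels and MPTP 1 week array 1 the bottom point in 9 of 10.

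The alpha crystallins showed the pattern clearly. Cryaa, the lens chaperone, was at 8.02 and 8.54 on the saline arrays and at 7.65 and 9.45 on the MPTP arrays of 1 week. At 4 weeks it was at 7.74 and 8.79 after saline and at 8.03 and 8.32 after MPTP. The MPTP arrays enclosed the saline arrays at 1 week and lay between them at 4 weeks. Cryab, the stress-inducible partner of Cryaa, was at 8.46 and 8.72 after saline and 8.28 and 9.46 after MPTP at 1 week, and at 8.33 and 9.002 after saline and 8.68 and 8.63 after MPTP at 4 weeks. Its 2 MPTP arrays thus stood on either side of saline at 1 week and between the saline arrays at 4 weeks, the same arrangement as for Cryaa. MPTP 1 week array 2 exceeded the mean of the other 7 arrays by 1.30 (log2; 2.46-fold) for Cryaa and by 0.87 (1.83-fold) for Cryab.

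Among the acidic beta crystallins, Cryba1 varied most. Cryba1, a lens structural protein that is also made in astrocytes and pigment epithelium, was at 9.34 and 9.998 after saline and at 8.41 and 11.15 after MPTP at 1 week. At 4 weeks it was at 8.67 and 10.31 after saline and at 9.44 and 9.73 after MPTP. The arrays of MPTP at 1 week differed 6.68-fold, and those of saline at 4 weeks 3.13-fold, so the arrays of either group lay further apart than the means of any 2 groups. Cryba2 was at 7.28 and 7.19 after saline and 6.93 and 7.78 after MPTP at 1 week, and at 7.01 and 7.68 after saline and 7.03 and 7.21 after MPTP at 4 weeks. Cryba4 was at 6.79 and 6.95, then 6.44 and 7.57, at 1 week and at 6.71 and 7.14, then 6.78 and 6.94, at 4 weeks, in the same order. Both genes had the MPTP arrays of 1 week as their extremes. The annotated ranges of Cryba4 and Crybb1 overlap on opposite strands, although transcripts from the starts used for their promoters run away from each other. Where the probes of the 2 genes lie was not checked.

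Among the basic beta crystallins, Crybb1 had the widest range over the arrays, 1.09, against 0.63 for Crybb2 and 0.71 for Crybb3. Crybb1 was at 7.30 and 7.31 after saline and 7.02 and 8.11 after MPTP at 1 week, and at 7.24 and 7.40 after saline and 7.60 and 7.49 after MPTP at 4 weeks. Crybb2, which is described in retinal neurons, was at 8.13 and 8.32 after saline and 7.93 and 8.55 after MPTP at 1 week, and at 7.99 and 8.56 after saline and 8.13 and 8.25 after MPTP at 4 weeks. For Crybb1, both MPTP arrays lay above both saline arrays at 4 weeks, while for Crybb2 they lay between them. Crybb3 was at 7.07 and 6.98 after saline and 7.21 and 7.70 after MPTP at 1 week, and at 7.17 and 7.40 after saline and 7.37 and 7.33 after MPTP at 4 weeks. It was the member whose MPTP arrays both lay above both saline arrays at 1 week.

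Of all members, the gamma-type ones had the largest (Crygs) and the smallest (Crygn) excess on MPTP 1 week array 2. Crygs, a major protein of the outer lens fibres, was at 7.60 and 7.96 after saline and at 7.05 and 9.71 after MPTP at 1 week. At 4 weeks it was at 7.38 and 8.42 after saline and at 7.91 and 7.89 after MPTP. MPTP 1 week array 2 exceeded the mean of the other 7 arrays 3.91-fold, the largest excess of any of the 19938 genes on that array. Crygn, an ancient member of the family that is expressed in retina, was at 7.04 and 6.898 after saline and 6.65 and 7.14 after MPTP at 1 week, and at 6.99 and 6.91 after saline and 7.11 and 7.09 after MPTP at 4 weeks. Its excess on MPTP 1 week array 2 was 1.13-fold, and its 2 MPTP arrays at 4 weeks lay narrowly above the saline arrays.

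Gene by gene, the excess of MPTP 1 week array 2 over the mean of the other 7 arrays was 1.97 for Crygs, 1.73 for Cryba1 and 1.30 for Cryaa on the log2 scale. It lay between 0.36 and 0.87 for the 6 members Cryab, Crybb1, Cryba4, Cryba2, Crybb3 and Crybb2, and was 0.18 for Crygn. The median was 0.76, against 0.0057 over all genes. Of all genes, 9 (0.0451%) exceeded the other arrays at least 2-fold on that array: Crygs, Cryba1, Crygb, Rny1, Cryaa, Crygc, Rpe65, Penk and Crygd. Crystallins made up 6 of the 9, of which 3 are members. On MPTP 1 week array 1, 5 genes were at least 2-fold below the mean of the other arrays: Cryba1 (log2 difference -1.40), 5530400C23Rik (-1.14), Crygd (-1.11), Crygs (-1.08) and H3c15 (-1.01). On each of the remaining 6 arrays, at most 1 gene was 2-fold above and at most 1 was 2-fold below.

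The spread between arrays of a group put the crystallins among the most variable genes of the table. The pooled within-group SD was 1.16 for Cryba1, 1.02 for Crygs and 0.77 for Cryaa, which rank 1, 2 and 3 of 19938 genes, and the median over all genes was 0.10. Crygd followed at rank 4 with 0.71. Of the 10 members, 7 lay among the 100 genes of largest within-group SD, and Crybb2 (0.31), Crybb3 (0.19) and Crygn (0.18) lay outside. Within MPTP at 1 week, array 2 was above array 1 for all 10 members, with differences of 0.48 to 2.74 and a median of 1.11, whereas 54.2% of all genes were higher on array 2 and their median absolute difference was 0.12. Within saline at 4 weeks, 9 of 10 were higher on array 2, with a median difference of 0.62, against 52.8% of all genes. Within saline at 1 week 7 of 10 were higher on array 2, with a median of 0.18, against 43.4% of all genes. Within MPTP at 4 weeks it was 5 of 10, with a median of 0.05, against 50.1% of all genes. The median absolute difference of all genes was 0.08, 0.14 and 0.10 in these 3 groups, in the same order. The labels do not say what the array numbers mark. For all 10 members the arrays of MPTP at 1 week differed from each other by more than the MPTP mean differed from the saline mean at that time.

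The members moved together across arrays. Pearson's r between pairs of members over the 8 arrays ranged from 0.36 to 0.99 over the 45 pairs, with a median of 0.88 and 18 pairs above 0.9. These are descriptions over 8 points that share one normalisation. Without MPTP 1 week array 2 the median was 0.73, and without both arrays of that group, the 2 farthest from the median of the members' mean, it was 0.60 over 6 arrays, with 8 pairs below 0. Crygs against the mean of the other 9 members gave r = 0.99 (rho 0.93) over 8 arrays and 0.98 (rho 0.83) over those 6. Cryab gave 0.99 (rho 0.93) and 0.97 (rho 0.83), and Crybb2 gave 0.91 (rho 0.93) and 0.96 (rho 0.89). Cryaa and Cryba1 each gave 0.97 (rho 0.98) and 0.93 (rho 0.94), Cryba4 gave 0.99 (rho 0.95) and 0.95 (rho 0.89), and Cryba2 gave 0.90 (rho 0.86) and 0.77 (rho 0.66). The remaining 3 lost the relation without the arrays of MPTP at 1 week: Crybb1 went from 0.88 (rho 0.79) to 0.36 (rho 0.49), Crybb3 from 0.72 (rho 0.52) to 0.38 (rho 0.31) and Crygn from 0.53 (rho 0.40) to -0.42 (rho -0.43). For these 3 genes the relation over 8 arrays rested on the arrays of MPTP at 1 week. The other 7 kept r of 0.77 or more, and saline 4 weeks array 2 was their highest array among the 6.

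Other crystallins shared the excess in part. Of 8 further family genes measured, Crygb, Crygc, Crygd and Cryga were highest on MPTP 1 week array 2, with excesses of 1.44, 1.28, 1.04 and 0.26. Crygf (0.03), Crybg1 (-0.04), Crybg2 (-0.05) and Crybg3 (-0.23) had no such excess, and the Crybg genes are distant relatives that are not lens structural proteins. Crygb was at 5.98, 6.37, 5.63 and 7.45 on the arrays of 1 week, saline first, and at 5.74, 6.06, 6.07 and 6.23 on those of 4 weeks. Its second highest array was saline 1 week array 2, not saline 4 weeks array 2, which is the second highest for most members. The gamma crystallins Cryga to Crygf are close copies of each other, so their separate values are uncertain.

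Lens fibre genes that are not crystallins had little of the excess on MPTP 1 week array 2. There the mean level of 10 such genes was 6.69, within the 6.46 to 6.76 of the other arrays, and none of the 10 was highest. Their mean excess was 0.06, and 7 of the 10 lay above their own mean over the other arrays. On saline 4 weeks array 2 the mean of this list was 6.73, below the 6.74 and 6.76 of the MPTP arrays of 4 weeks. Like that of the crystallins, their mean was lowest on MPTP 1 week array 1. This was not particular to lens genes, since the means of the crystallin regulator, pigment epithelium, cornea and heat shock lists were also lowest there. On that array 6 of 8 cornea and conjunctiva genes and 21.7% of all genes were at their lowest. The lens fibre genes had a mean of 6.46 on it, with 5 of 10 at their lowest. Their mean gave r = 0.48 (rho 0.60) with the members' mean over 8 arrays, 0.56 (rho 0.64) without MPTP 1 week array 2 and 0.25 (rho 0.43) without both arrays of that group. The excess was 0.23 for Bfsp2 and 0.15 for Bfsp1, which encode the beaded filament of fibre cells, and -0.17 for Birc7. It was 0.05 for Mip, the lens water channel, and -0.01 for Lim2, a fibre membrane protein. Of these 10 probe sets 7 were below the median signal of all genes, against 2 of the 10 members. Crygb, Crygc and Crygd, which had the excess, were below that median too. The signal of a probe set in these retina arrays does not give its transcript's abundance in lens, which was not measured. Of 9 transcription factor genes that regulate crystallins in the lens, none was highest on MPTP 1 week array 2 (mean excess -0.02). The largest differences were -0.17 for Six3, -0.14 for Prox1 and 0.12 for Hsf4. Several of the 9 were bright on all these retina arrays and so do not mark lens alone. Prox1, Pax6 and Six3 lay at percentiles 95.1, 94.4 and 69.9 of mean signal.

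**Figure D2:**
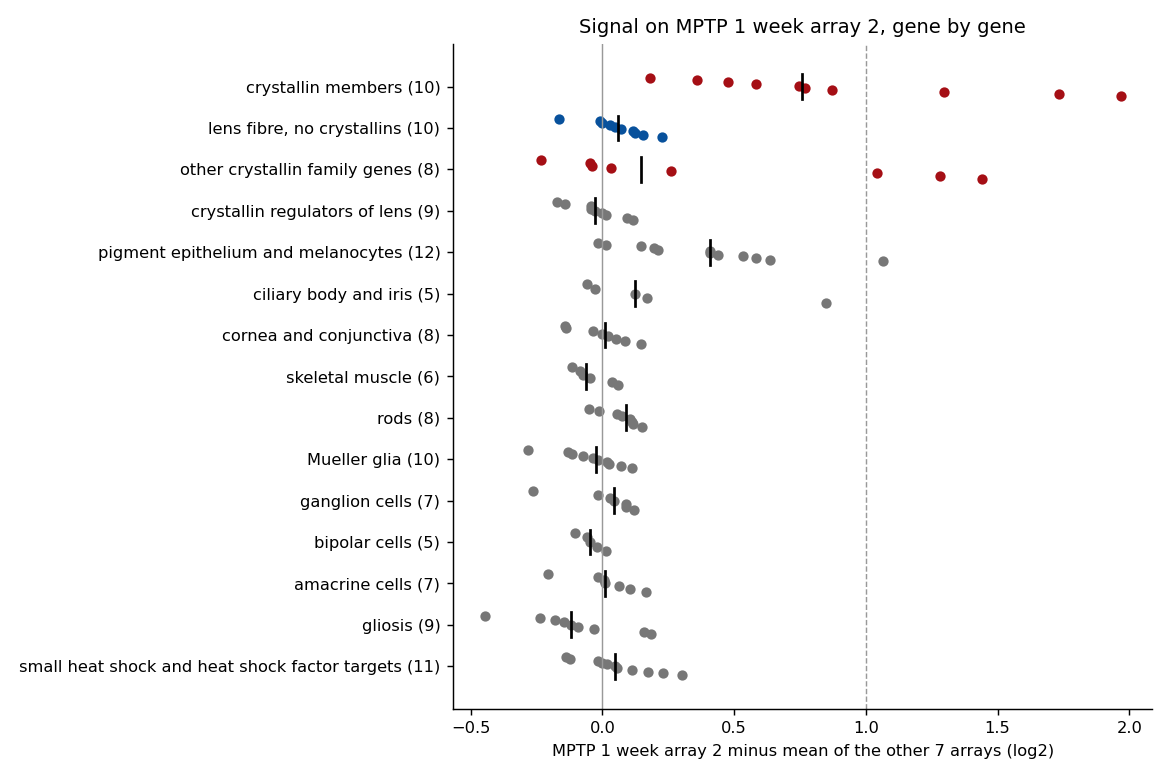
Each point is 1 gene's log2 signal on MPTP 1 week array 2 minus its mean over the other 7 arrays, grouped by list with the number measured in brackets, and black bars are medians. The crystallin members reach 1.97 and 3 other crystallins exceed 1 (dashed line, 2-fold), while the lens fibre genes without crystallins stay between -0.17 and 0.23.

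Markers of other eye tissues differed in how they moved with the crystallins. Genes of pigment epithelium and melanocytes were higher on MPTP 1 week array 2: 8 of 12 had their highest value there, and their mean was 7.62 against 7.00 to 7.41 on the others. The excess was 1.06 for Rpe65, the isomerase of the visual cycle, 0.64 for Rgr and 0.58 for Ttr. On saline 4 weeks array 2, the next highest for most crystallins, the mean of these genes was 7.25, inside that range. Their mean gave r = 0.65 (rho 0.26) with the members' mean over 8 arrays, 0.19 (rho -0.11) without MPTP 1 week array 2 and -0.56 (rho -0.77) without both arrays of that group. Ciliary body and iris genes had a mean of 7.03 on MPTP 1 week array 2 against 6.70 to 6.93 on the others. There 2 of 5 were highest, with Optc at an excess of 0.85. Wfdc1 was at 0.17, Acta2 at 0.12, Myh11 at -0.03 and Des at -0.06, so the list's mean excess of 0.21 rested mostly on Optc. On MPTP 1 week array 1, where the crystallins' mean was lowest, Optc was 0.31 above its mean over the other arrays. The mean of the ciliary body and iris list gave r = 0.79 (rho 0.76) with the members' mean over 8 arrays. It gave 0.49 (rho 0.64) without MPTP 1 week array 2 and 0.55 (rho 0.60) without both arrays of that group. Cornea and conjunctiva genes (1 of 8 highest there, mean excess -0.0011) and skeletal muscle genes (0 of 6, -0.04) had no excess there. With the members' mean, cornea genes gave r = 0.35 (rho 0.48) over 8 arrays, 0.57 (rho 0.64) without MPTP 1 week array 2 and 0.27 (rho 0.43) without both arrays of that group. Muscle genes gave 0.23 (rho 0.31), 0.58 (rho 0.61) and 0.42 (rho 0.60). Rod (0.07), Mueller glia (-0.04), ganglion cell (0.01), bipolar (-0.04) and amacrine (0.02) genes had mean excesses near 0, and gliosis genes had -0.10. With the members' mean, gliosis genes gave r = -0.32 (rho -0.38) over 8 arrays and -0.32 (rho -0.54) without MPTP 1 week array 2. Without both arrays of that group they gave -0.72 (rho -0.83). In that last setting r was 0.17 for rod, -0.43 for Mueller glia, -0.12 for ganglion cell, 0.08 for bipolar and 0.44 for amacrine genes. The part of lens, pigment epithelium or ciliary body tissue in the crystallin signal was not tested.

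**Figure D3:**
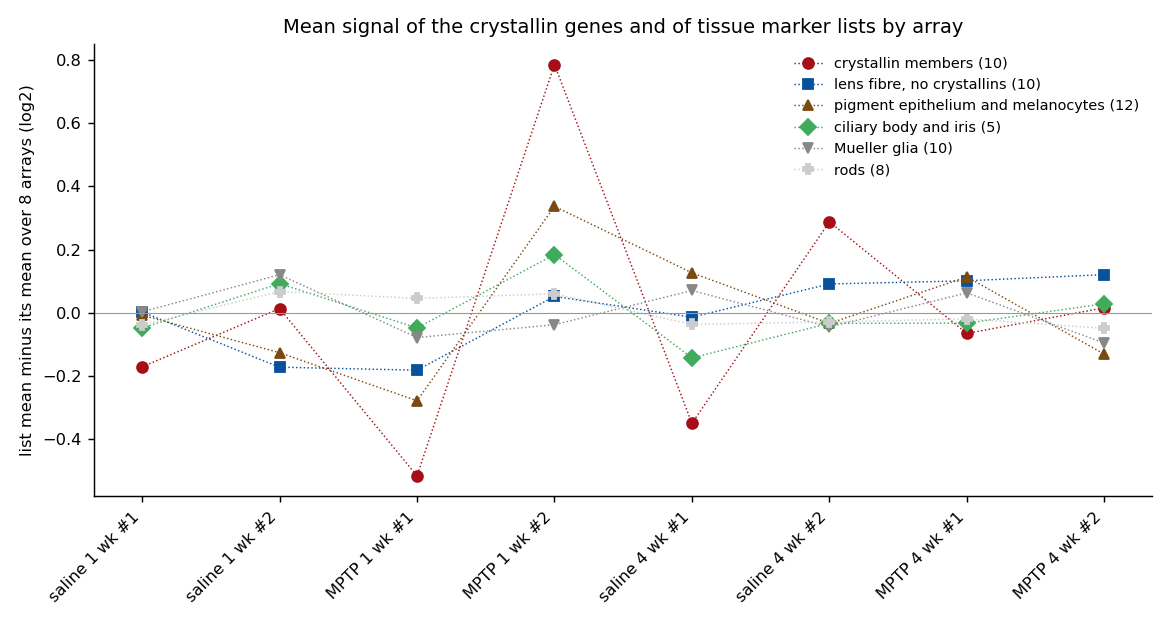
Mean log2 signal of each gene list per array, minus that list's mean over the 8 arrays, with dotted lines only to guide the eye. The crystallin members are highest on MPTP 1 week array 2 and second highest on saline 4 weeks array 2, where the pigment epithelium list (mean 7.25) lies among the other arrays.

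Heat shock genes, several of which are induced by stress as Cryab is, had a mean excess of 0.06 on MPTP 1 week array 2, and 3 of 11 were highest there. Hspb2, the gene beside Cryab, had the largest excess of these, 0.30, but was highest on MPTP 4 weeks array 1. Hspa1a, the inducible Hsp70, had an excess of 0.23. Over 8 arrays the list's mean gave r = 0.63 (rho 0.21) with the members' mean, 0.43 (rho -0.04) without MPTP 1 week array 2 and -0.24 (rho -0.66) without both arrays of MPTP at 1 week.

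No crystallin passed the test between MPTP and saline. At 1 week limma called none of the 10 members and none of the 19938 genes (0%) at an adjusted p of 0.05, and 1 member and 842 genes had an unadjusted p under 0.05. That member was Crybb3, with a log2 fold change of 0.42 ± 0.15 (SE, n = 2 arrays per group; unadjusted p = 0.0173, limma adjusted p = 1.00). Fold changes were above 0 for 9 of 10 members, with a median of 0.20 against -0.0081 over all genes. Crygs was at 0.60 ± 0.66, Cryab at 0.28 ± 0.32, Cryaa at 0.27 ± 0.50, Crybb1 at 0.26 ± 0.26 and Cryba1 at 0.11 ± 0.74. Cryba4 was at 0.13 ± 0.29, Cryba2 at 0.11 ± 0.26, Crybb2 at 0.02 ± 0.21 and Crygn at -0.07 ± 0.14. For every member other than Crybb3 the fold change was smaller than its error or about equal to it. Crybb3 was the 1 member whose MPTP arrays both lay above both saline arrays, an arrangement that 12.5% of all genes had.

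The direction at 1 week was set by which MPTP array was kept. Without MPTP 1 week array 2, 1 of 10 members was above 0 (Crybb3, 0.18), the median was -0.31 and Cryba1 was at -1.26. Without MPTP 1 week array 1, all 10 were above 0, with a median of 0.75 and Crygs at 1.93. The smallest limma adjusted p of a member was 0.693 in the first case and 0.396 in the second, with 4 and 8 members at an unadjusted p under 0.05. Leaving out the 2 arrays with the wider spread, saline 1 week array 2 and MPTP 1 week array 1, gave a median of 0.79, 7 members at an unadjusted p under 0.05 and no call. In each of these fits a group of 1 array is assumed to vary like the others.

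**Figure D4:**
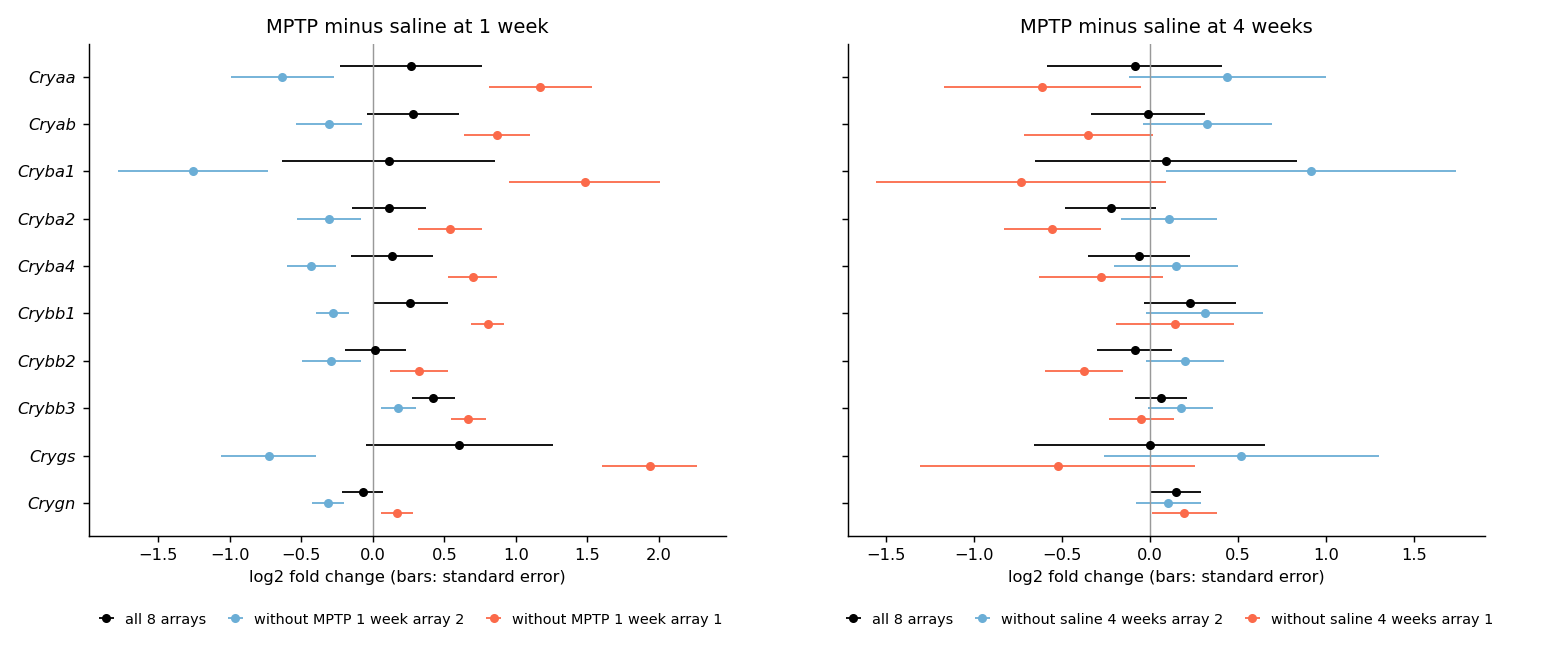
Log2 fold change of MPTP over saline for each crystallin gene at 1 week (left) and 4 weeks (right), with bars for the standard error, from all 8 arrays (black) and without 1 array of a group that spread widely (blue, red). At 1 week, 9 of 10 members lie above 0 with all arrays, 1 without MPTP 1 week array 2 and 10 without MPTP 1 week array 1.

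At 4 weeks limma again called no member and no gene, and 0 members and 381 genes had an unadjusted p under 0.05. The members' median was -0.0065, with 4 of 10 above 0. Crybb1 was at 0.23 ± 0.26, Crygn at 0.15 ± 0.14, Cryba1 at 0.09 ± 0.74 and Crybb3 at 0.06 ± 0.15. Cryba2 was at -0.22 ± 0.26, Crybb2 at -0.09 ± 0.21, Cryaa at -0.08 ± 0.50, Cryba4 at -0.06 ± 0.29, Cryab at -0.01 ± 0.32 and Crygs at -0.0018 ± 0.66. Crybb1 and Crygn were the 2 members whose MPTP arrays both lay above both saline arrays, which 17.4% of all genes did. The direction turned with the saline array kept for all members but Crybb1 and Crygn: Cryba1 was at 0.92 without saline 4 weeks array 2 and at -0.73 without saline 4 weeks array 1. The members' median was 0.25 in the first case, with 10 of 10 above 0, and -0.36 in the second, with 2 of 10. Without the 2 arrays of wider spread, which belong to the other time, the median stayed at -0.0065, and 1 member had an unadjusted p under 0.05.

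Over both times, no member and no gene was called, 0 members and 950 genes had an unadjusted p under 0.05, and the members' median was 0.10. Crybb3 had the smallest p, with 0.24 ± 0.11 (unadjusted p = 0.0549, limma adjusted p = 0.973), followed by Crybb1 with 0.24 ± 0.18. No member had all 4 MPTP arrays above all 4 saline arrays, against 1.01% of all genes. The median hung on single arrays: it was 0.32 without MPTP 1 week array 1 (10 of 10 above 0, 3 at an unadjusted p under 0.05), -0.19 without MPTP 1 week array 2 (2 of 10 above 0), 0.29 without saline 4 weeks array 2 and -0.0010 without saline 4 weeks array 1. Without the 2 arrays of wider spread it was 0.29, with 1 member at an unadjusted p under 0.05. No member was called in these fits.

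The difference between the MPTP effects at 4 weeks and 1 week was called for no member and no gene (0 and 391 at an unadjusted p under 0.05), with a median of -0.24. Its smallest p-values belonged to Crybb3 (-0.36 ± 0.21), Crygn (0.22 ± 0.20) and Cryba2 (-0.34 ± 0.37). The median turned to 0.41 without MPTP 1 week array 2 (9 of 10 above 0, 2 at an unadjusted p under 0.05) and was -0.76 without MPTP 1 week array 1 (0 of 10 above 0, 7 at an unadjusted p under 0.05). It was 0.05 without saline 4 weeks array 2 and -0.55 without saline 4 weeks array 1. Without the 2 arrays of wider spread it was -0.78, with 6 members at an unadjusted p under 0.05. No member was called in these fits.

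Between 4 weeks and 1 week over both treatments, no member and no gene was called (0 and 2301 at an unadjusted p under 0.05), and the members' median was -0.05. Here Crygn was at 0.09 ± 0.10, Crybb3 at 0.08 ± 0.11 and Cryaa at -0.19 ± 0.34. The median was -0.23 without MPTP 1 week array 1, 0.20 without MPTP 1 week array 2 (10 of 10 above 0, 1 at an unadjusted p under 0.05), 0.04 without saline 4 weeks array 1 and -0.19 without saline 4 weeks array 2. It was -0.29 without the 2 arrays of wider spread, with 0 of 10 above 0, and no member was called.

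Among 1289 genes that varied over the arrays (SD of at least 0.2) and are not members, those most like the crystallins' mean profile over the 8 arrays were Crygb (r = 0.92), Crygc (0.89), Abcg3 (0.87), Slco1b2 (0.83), Fzd8 (0.83), Defb42 (0.82), Crygd (0.82), S100z (0.79), Cypt3 (0.78) and Scgb1c1 (0.78). The genes most like Cryab alone were Crygb (0.90), Crygc (0.90), Abcg3 (0.84), Slco1b2 (0.83), Cypt3 (0.79), Crygd (0.78), Igkv5-43 (0.78), Fzd8 (0.78), Scgb1c1 (0.78) and Zscan10 (0.77). For Crygb, r with the members' mean was 0.77 without MPTP 1 week array 2 and 0.59 without both arrays of that group, for Crygc 0.68 and 0.70, and for Crygd 0.64 and 0.16. Among the genes that are not crystallins, r was 0.86 and 0.90 for Slco1b2, 0.82 and 0.68 for Defb42 and 0.81 and 0.65 for Abcg3 in the same order. It was 0.28 for Fzd8, 0.22 for S100z, 0.38 for Cypt3 and 0.37 for Scgb1c1 without both arrays of MPTP at 1 week. Over the other 6 arrays Slco1b2 thus kept a high r, and Crygd, Fzd8 and S100z lost most of theirs. All these genes were picked by r over the 8 arrays, which include those 6, so a kept r is in part set by the choice. Slco1b2 (4.21 to 4.81), Defb42 (4.65 to 5.35) and Abcg3 (4.81 to 5.46) were dim, against array medians of 6.85 to 6.93.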

How the data were processed

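Per the labels' protocols, SPIA amplification and biotin labelling were applied to retinal RNA. Values were deposited on the log2 scale, and the submitters' processing notes name RMA and Affymetrix Expression Console without a version. The genome build and hybridisation dates were not given in the sources used here. Of 28944 probe sets, 21789 name exactly 1 gene, and 1621 that name several and 5534 without a gene were left out. For the 999 genes with several probe sets the one of highest mean was kept, with no filter on dim probe sets.

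Each comparison was fitted over all 19938 genes and 8 arrays with limma 3.58.1 in R 4.3.3 (lmFit, eBayes, two-sided, Benjamini-Hochberg over all genes, threshold 0.05), with a mean per group, or with time and treatment as additive terms for the comparisons over both. The fit was tested on simulated data. For arrays, their number (2 per group) limits the precision. The within-group SD pools the 4 groups. The members and the 14 comparison lists were chosen with earlier results of these data known. All members were named whatever their values. From the other lists the genes of largest absolute difference or smallest p were named, while Mip, Lim2, Cryga, Crygf, the Crybg genes and the genes past 2-fold on 1 array were chosen after their values were seen. Likeness was Pearson's r, passing over predicted genes, receptors of smell and microRNAs. Alternatives were another normalization (quantile, cyclic loess, median centring), a filter on dim probe sets, averaging of probe sets per gene, robust moderation, a replicate block, the compared groups alone, and each array or the 2 arrays of wider spread left out. Across genes, the differences between array 1 and array 2 correlated between -0.383 and 0.207 from group to group. These values cannot tell whether the arrays were paired or shared a batch.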

Additional observations from a re-analysis of the deposited data

How the results depend on the processing

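No member was called in any of the 5 comparisons under any alternative run, the replicate block (0 calls) and the block with the numbers of MPTP at 1 week exchanged, chosen after seeing the data (0 calls), included. The excess of the members' mean on MPTP 1 week array 2 was 0.90 and became 0.57 without the 3 members of largest excess, an alternative chosen after seeing the data. The lens fibre list's excess stayed close to its value of 0.06. Turns of direction were listed for all members at 1 week, at 4 weeks and over both times. For the other 2 comparisons only the 3 members of smallest p were followed. Among these, Crybb2 turned at 1 week with cyclic loess (-0.0006) and Crygn at 1 week without the 2 arrays of wider spread (0.0979). At 4 weeks Cryab turned with quantile (0.0204) and cyclic loess (0.0187) normalization, and Crygs with the same (0.0111 and 0.0260). Without the 2 arrays of wider spread, Cryba2 (0.0156) and Crybb2 (0.0810) turned over both times. Crygn (-0.0617) and Crybb3 (-0.0652) then turned between the times. Over all members, 4 were above 0 between the times with the deposited values. The count was 0 without those 2 arrays, 2 with median centring and 5 with quantile or cyclic loess normalization. For the difference of MPTP effects it went from 1 to 2 with quantile or cyclic loess. The filter on dim probe sets removed Cryba4 and Crygn.

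With each array left out in turn, log2 fold changes at 1 week ranged from -0.63 to 1.17 for Cryaa, -0.31 to 0.87 for Cryab, -1.26 to 1.48 for Cryba1, -0.31 to 0.54 for Cryba2, -0.43 to 0.70 for Cryba4, -0.28 to 0.80 for Crybb1, -0.29 to 0.32 for Crybb2, 0.18 to 0.67 for Crybb3, -0.31 to 0.17 for Crygn and -0.73 to 1.93 for Crygs. At 4 weeks they ranged from -0.61 to 0.44 for Cryaa, -0.35 to 0.33 for Cryab, -0.73 to 0.92 for Cryba1, -0.55 to 0.11 for Cryba2, -0.28 to 0.15 for Cryba4, 0.14 to 0.31 for Crybb1, -0.37 to 0.20 for Crybb2, -0.0483 to 0.18 for Crybb3, 0.11 to 0.19 for Crygn and -0.52 to 0.52 for Crygs. Over both times they ranged from -0.30 to 0.42 for Cryaa, -0.13 to 0.34 for Cryab, -0.45 to 0.65 for Cryba1, -0.26 to 0.11 for Cryba2, -0.21 to 0.24 for Cryba4, 0.0230 to 0.46 for Crybb1, -0.17 to 0.0895 for Crybb2, 0.11 to 0.32 for Crybb3, -0.0353 to 0.16 for Crygn and -0.29 to 0.77 for Crygs. The difference of MPTP effects ranged from -0.76 to 0.0854 for Cryba2, -0.60 to -0.11 for Crybb3 and -0.0181 to 0.46 for Crygn. Between the times, they ranged from -0.52 to 0.20 for Cryaa, -0.0018 to 0.21 for Crybb3 and -0.0248 to 0.17 for Crygn. The extremes came with an array of MPTP at 1 week or of saline at 4 weeks left out.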
